A study of Drosophila melanogaster with 18 samples.

Results

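In early Drosophila embryos, 40 genes had a transcript level that stayed within 2-fold at each step between successive diploid stages and lay at least 2-fold lower in haploid embryos at all 3 matched stages. The genes were chosen from these same arrays, the brightest probe set standing for each of 11982 genes. A gene entered if the mean log2 intensity of haploid cycle 14 lay at least 1 below that of diploid cycle 13, haploid early cycle 15 at least 1 below diploid early cycle 14, and haploid late cycle 15 at least 1 below diploid late cycle 14. Its diploid means also had to differ by less than 1 between cycle 13 and early cycle 14 and between early and late cycle 14. The brightest diploid mean had to reach a log2 level of 5, an intensity of 32. The limits on the diploid embryos alone were met by 4505 genes, called steady and bright below, so the 40 are 0.888% of these. In the opposite direction, 18 steady and bright genes were at least 2-fold higher in haploids at all 3 stages. The haploid-diploid differences and the diploid steps chose the genes, so they are given as descriptions without a test.

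Whole embryos were hand-picked by their histone-GFP pattern, about 50 for each of 3 biological replicates in each of 6 groups, 18 arrays in all. The diploid embryos, labelled wild-type, had parents of genotype w; histone H2-GFP. Timed from the preceding division, they were collected in cycle 13 at 15 min, in early cycle 14 at 15 min and in late cycle 14 at 40 min. The haploid embryos had maternal haploid; histone H2-GFP parents and were collected 1 division later each time, in cycle 14 at 15 min, early cycle 15 at 15 min and late cycle 15 at 40 min. The 3 pairs are matched in the ratio of DNA to cytoplasm, because a haploid nucleus holds 1 genome copy in place of 2. Both kinds of parent carry the histone H2-GFP transgene. All haploid arrays come from maternal haploid parents and all diploid arrays from w parents, so ploidy, the mother's genotype, the fly stock and the sequence under each probe cannot be told apart. Within each matched pair the haploid embryos were also 1 division further on, so age and cycle number differ too. In whole embryos, fewer cells with a transcript and less transcript per cell cannot be told apart either.

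As background, a Drosophila egg is loaded with maternal transcripts, and the embryo's own genome takes over as those transcripts are cleared, during the last syncytial cycles and cellularization. Transcripts that hold their level over this window can be stable maternal RNA, or maternal RNA replaced by new transcription. Mothers mutant for maternal haploid (mh), the fly homologue of the protease Spartan, lay eggs in which the paternal chromosomes are lost at the first division, and the embryo goes on with the maternal set.

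Intensities are the submitters' MAS5 values after quantile normalisation over the 18 arrays. The background used here is an intensity of 31.9, below which 95% of the values of 20 negative controls lie. Replicate arrays correlated at 0.928 to 0.947 on the log2 scale. Before normalisation the upper quartile of each array averaged 236, 195 and 133 in the 3 diploid groups by stage and 97.5, 109 and 121 in the 3 haploid groups, so the haploid arrays were dimmer as deposited. The 3' GAPDH control averaged 965 in diploid cycle 13 and 152 or less in the other groups, and the middle 18S rRNA control averaged 987 in haploid late cycle 15 and 396 or less elsewhere. The part of these controls in the differences of the 40 genes was not tested. Under the other 4 scalings tried, the median difference of all tested genes in the first pair, 0.09 after quantile normalisation, moved to between -0.79 and -0.08. All 40 genes were lower in haploids in all 3 pairs under each of those scalings, where their median in the first pair ran from -2.73 to -2.02. That direction had little room to change, because the genes were chosen at -1 or below. These scalings also moved the medians of all tested genes downward or by little. Only 16 of the 40 genes met every limit of the rule under all 4. The mh probe set lay near background in both kinds of embryo, at 10.6 to 51.8 in the group means, and gives no check of the ploidy labels.

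The 40 genes were lower in haploids by a median of -1.58 log2 (2.99-fold) in the first pair, -1.64 (3.12-fold) in the second and -1.55 (2.93-fold) in the third. Over all steady and bright genes the medians were 0.23, 0.09 and -0.02. Averaged over the 3 pairs, 5 genes were under -3, 13 were under -2 in all, 13 lay between -2 and -1.5, and 14 lay above -1.5. In 29 of the 40 genes every one of the 9 diploid arrays was brighter than every one of the 9 haploid arrays, a pattern that 1.49% of all steady and bright genes had. Within the pairs the 3 diploid arrays lay above the 3 haploid arrays for 40, 40 and 39 of the genes, against 20.7%, 20.4% and 29.4% of the steady and bright genes, and the rule itself asks for such a gap. Diploid levels varied widely, and 18 of the 40 had a diploid mean of at least 512 while 13 stayed below a log2 level of 6.5. Every diploid array was above background for 33 genes. Every haploid array was above background for 22 genes, some were for 7 and none was for 11. The rule asks for low haploid values and admits a brightest diploid mean of 32, near the background of 31.9. These counts therefore partly follow from the rule. They, and the genes below that combine them, are given without shares over all steady and bright genes.

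**Figure D1:**
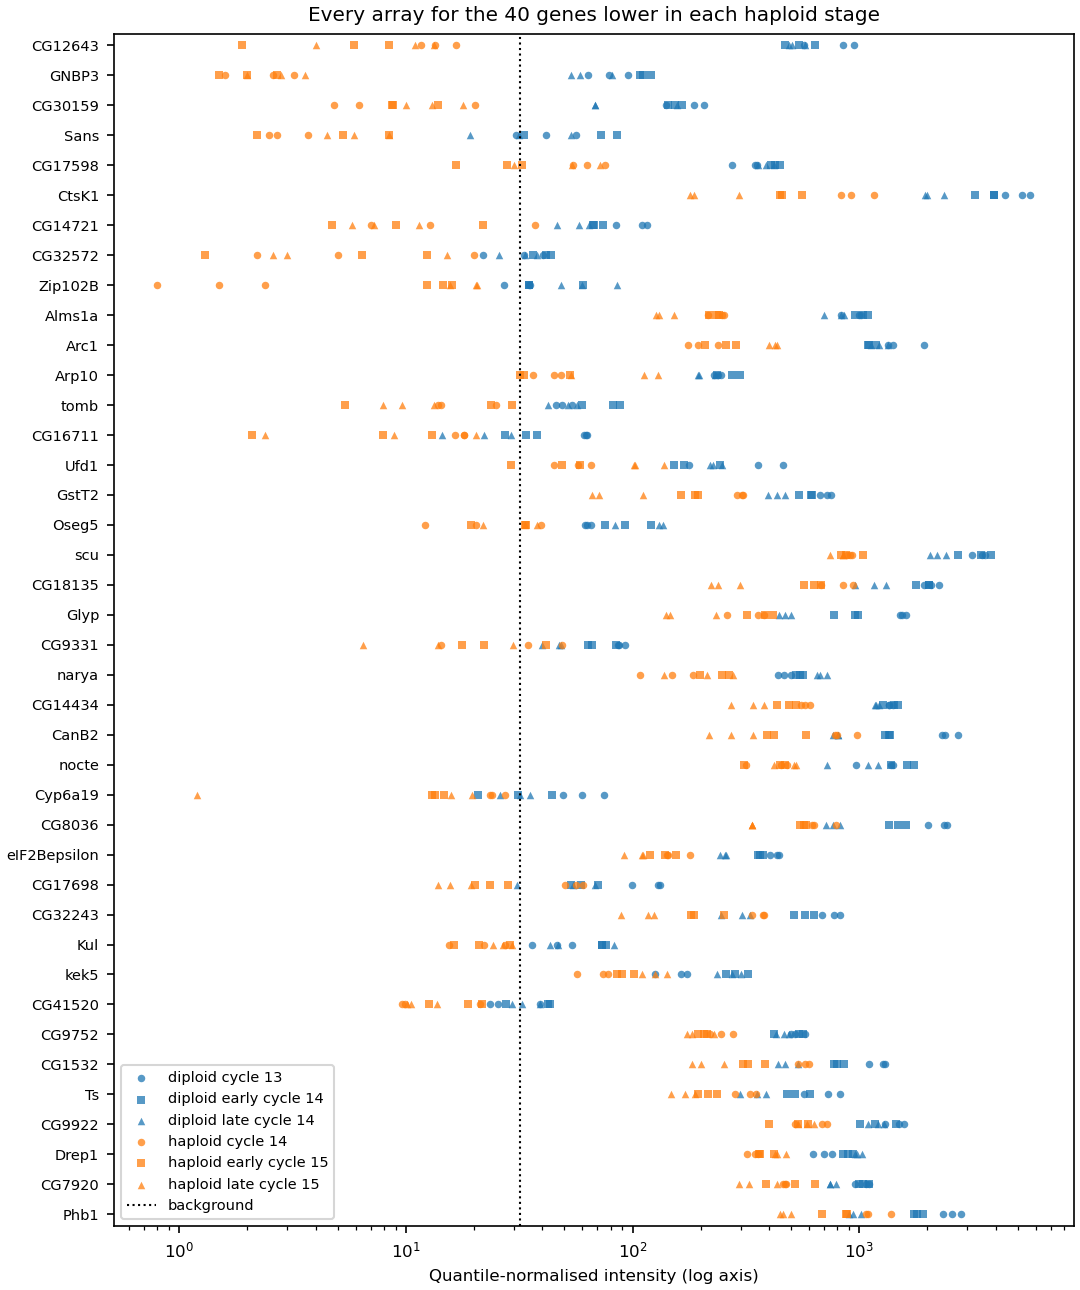
Quantile-normalised intensity (horizontal log axis) of each of the 40 genes (rows, ordered by mean haploid-diploid difference) on all 18 arrays, with blue for diploid and orange for haploid embryos and the stage given by the marker. The dotted line is the background of 31.9; in 29 of the 40 rows all orange points lie left of all blue points.

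For 5 genes all 9 diploid arrays were above background and all 9 haploid arrays below it: CG12643, GNBP3, CG30159, tomb and Kul. CG12643 read 847, 573 and 946 on the diploid cycle 13 arrays, 543, 639.6 and 471 at early cycle 14 and 491, 505 and 578 at late cycle 14, against 11.7, 16.7 and 13.5 in haploid cycle 14, 5.9, 1.9 and 8.4 in early cycle 15 and 13.3, 4 and 11 in late cycle 15. Its lowest diploid array was above its highest haploid array by a wide margin. Measured against the background, the diploid level was at least 24.1-fold, 17.1-fold and 16.4-fold higher in the 3 pairs. GNBP3, which encodes a circulating receptor for fungal beta-glucan upstream of the Toll pathway, gave 78.5, 95.1 and 63.9 in diploid cycle 13 and 2.6, 3.2 and 1.6 in the matched haploid cycle 14, then 108, 112 and 120.5 against 2.7, 2 and 1.5 in the early pair, and 80.9, 53.3 and 58.6 against 2, 2.8 and 3.6 in the late pair. All of its haploid arrays were far under background, and the diploid level was at least 2.45-fold, 3.55-fold and 1.98-fold higher. CG30159 stood at 4.8, 6.2 and 20.2, then 13.9, 8.7 and 8.8, then 17.9, 13.1 and 10 in the haploid stages from cycle 14 to late cycle 15, where the diploid stages had 140.5, 207 and 186, then 166, 155 and 143, then 68.1, 68.5 and 157. A single late diploid array, at 157, was as bright as the earlier stages while the other 2 were near 68, and none of the haploid arrays came near them. The bounds for CG30159 were at least 5.49-fold, 4.82-fold and 2.82-fold.

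The other 2 genes of this kind were closer to the background in diploids as well. tomb, which acts with the testis meiotic arrest genes in spermatocytes, gave 54.2, 48.9 and 46.1 in diploid cycle 13 and 13.9, 14.3 and 25 in the matched haploid cycle 14, then 59.8, 88.4 and 81.6 against 5.4, 23.7 and 29.4 in the early pair, and 57.1, 42.3 and 52.1 against 13.3, 7.9 and 9.6 in the late pair. The diploid and haploid arrays did not overlap, but the bounds were only at least 1.55-fold, 2.36-fold and 1.57-fold. Kul, an ADAM family metalloprotease, had 35.9 to 82.9 over the 9 diploid arrays and 15.5 to 29.5 over the 9 haploid arrays, with bounds of at least 1.4-fold, 2.32-fold and 1.73-fold. A further 6 genes were under background on all haploid arrays and on some diploid arrays. Sans, the scaffold protein whose human counterpart is an Usher syndrome gene, averaged 42.7 ± 12.8, 63.6 ± 27.1 and 34.7 ± 17.4 (SD, n = 3) in the diploid stages and 8.41 or less on every haploid array. Zip102B, a ZIP family zinc transporter, read 34.9, 27.1 and 35.4 on the diploid cycle 13 arrays, 60.2, 34.8 and 34.9 at early cycle 14 and 85.5, 59.8 and 48.4 at late cycle 14, against 1.5, 0.8 and 2.4 in haploid cycle 14, 15.9, 12.4 and 14.6 in early cycle 15 and 20.3, 20.6 and 15.6 in late cycle 15. None of its haploid arrays reached background, and the bounds were at least 1.01-fold, 1.31-fold and 1.96-fold. Cyp6a19, a cytochrome P450, had 20.7 to 75 over the 9 diploid arrays and 1.19 to 27.5 over the 9 haploid arrays, so its arrays overlapped. CG32572, CG16711 and CG41520 were the remaining 3, and their diploid group means lay between 21.9 and 62.2.

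Among bright genes, several encode enzymes of sugar, nucleotide and mitochondrial metabolism. Glyp, glycogen phosphorylase, which releases glucose phosphate from glycogen, gave 1611, 1549 and 1516 in diploid cycle 13 and 356, 261 and 382 in the matched haploid cycle 14, then 774, 989 and 962 against 416, 318 and 385 in the early pair, and 472, 442 and 500.1 against 146, 234 and 141 in the late pair. Diploid and haploid arrays were apart in each pair, and the diploid arrays were dimmer at each later stage. The matched differences were -2.25, -1.28 and -1.48 (SE 0.156). CG8036, annotated with the synonym Transk for transketolase of the pentose phosphate pathway, averaged 2267 ± 232, 1480 ± 124 and 767 ± 55.6 in diploids against 681 ± 94.5, 566 ± 20.2 and 336 ± 1.47 in haploids (SD, n = 3). Ts, thymidylate synthase, which makes the thymine nucleotide for DNA, had 299 to 820.1 over the 9 diploid arrays and 147 to 351 over the 9 haploid arrays, with differences of -1.13, -1.32 and -1.04 (SE 0.137). GstT2, a glutathione transferase of the theta class, stood at 306, 290.2 and 303, then 194, 188 and 164, then 65.9, 70.8 and 112 in the haploid stages from cycle 14 to late cycle 15, where the diploid stages had 719, 673 and 751, then 621, 540.1 and 610.1, then 395, 469.9 and 432. The haploid arrays were dimmer at each later stage, more so than the diploid arrays, and the groups of a pair did not overlap.

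Mitochondrial proteins were represented by scu and Phb1. scu, a mitochondrial short-chain dehydrogenase whose human counterpart is HSD17B10, read 3592, 3463 and 3157 on the diploid cycle 13 arrays, 2714, 3451 and 3797 at early cycle 14 and 2213, 2052 and 2409.6 at late cycle 14, against 929, 912 and 887 in haploid cycle 14, 876, 827 and 1038 in early cycle 15 and 847, 846 and 746 in late cycle 15. The 9 haploid arrays lay in a narrow band, all under the lowest diploid array. The differences of scu were -1.90, -1.85 and -1.45 (SE 0.1). Phb1, a prohibitin of the mitochondrial inner membrane, gave 2822, 2336 and 2556 in diploid cycle 13 and 1073, 1093 and 1381 in the matched haploid cycle 14, then 1804, 1905 and 1743 against 878, 687 and 880.2 in the early pair, and 937, 899.5 and 1022 against 463, 500.3 and 448 in the late pair. Its haploid cycle 14 arrays were brighter than the late diploid arrays, so the 2 sets overlap across stages but not within a pair. CG18135 stood at 849, 675 and 943, then 568, 632 and 678, then 222, 298 and 238 in the haploid stages from cycle 14 to late cycle 15, where the diploid stages had 1932, 2242 and 2079, then 2038, 2036 and 1785, then 953, 1318 and 1167. As with GstT2, the late haploid arrays were the dimmest and the 3 pairs were apart. CG9331, whose annotation carries the synonym GRHPR of the human glyoxylate reductase, was dim, with 40 to 92.9 over the 9 diploid arrays and 6.53 to 48.7 over the 9 haploid arrays.

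The brightest of the 40 genes was CtsK1, a cathepsin-like cysteine protease. CtsK1 read 5671, 4379 and 5237 on the diploid cycle 13 arrays, 3938, 3238 and 3938 at early cycle 14 and 1948, 2374 and 1996 at late cycle 14, against 1160.2, 832 and 916 in haploid cycle 14, 446, 559 and 457 in early cycle 15 and 180, 295 and 186 in late cycle 15. Both kinds of embryo were dimmer at each later stage, and every haploid array stayed under every diploid array. The differences were -2.40, -2.93 and -3.29 (SE 0.151 each). Their change was not called by limma, at -0.53 from the first to the second pair (SE 0.213, adjusted p = 0.14). From the second to the third pair it was -0.36 (SE 0.213, adjusted p = 0.32). Ufd1, a cofactor that hands ubiquitinated proteins to the segregase TER94, gave 462, 178 and 358 in diploid cycle 13 and 65.4, 57.4 and 44.8 in the matched haploid cycle 14, then 244, 152 and 169 against 48.9, 58.7 and 29.2 in the early pair, and 219.7, 225 and 249 against 102, 103 and 138 in the late pair. Diploid cycle 13 was uneven for Ufd1, with 1 array far below the other 2, and the late haploid arrays were the brightest haploid ones. Drep1, a relative of the inhibitor that holds the apoptotic DNA nuclease in check, stood at 356, 320.1 and 348, then 421, 363 and 362, then 476, 424 and 435 in the haploid stages from cycle 14 to late cycle 15, where the diploid stages had 623, 699.6 and 756, then 896, 941 and 849, then 977, 1031 and 956. Both kinds of embryo had their brightest arrays at the last stage, and the 2 kinds did not overlap. eIF2Bepsilon, the catalytic subunit of the exchange factor that recharges translation factor eIF2, had 243 to 443 over the 9 diploid arrays and 91.9 to 179 over the 9 haploid arrays. CG9922, the fly counterpart of the chaperone HYPK by its synonym, had 1012 to 1575 over the 9 diploid arrays and 400.2 to 723 over the 9 haploid arrays. Neither of these genes overlapped between the kinds of embryo.

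Signalling genes included CanB2, a regulatory B subunit of the calcium-dependent phosphatase calcineurin, which acts in egg activation. CanB2 gave 2381, 2317 and 2730.5 in diploid cycle 13 and 800.3, 782 and 973 in the matched haploid cycle 14, then 1358, 1305 and 1372 against 419.5, 581 and 392 in the early pair, and 805, 803 and 767 against 218, 271 and 339 in the late pair. The 3 differences were nearly equal, at -1.54, -1.56 and -1.54 (SE 0.133), while both kinds of embryo had their brightest arrays at the first stage and their dimmest at the last. CG17598, annotated as a PP2C-type phosphatase by its synonym, read 354, 347 and 274 on the diploid cycle 13 arrays, 409, 447 and 424 at early cycle 14 and 388, 356 and 422 at late cycle 14, against 75.9, 54.8 and 63.2 in haploid cycle 14, 32.6, 27.8 and 16.6 in early cycle 15 and 71.5, 30.1 and 54.1 in late cycle 15. The diploid arrays were flat, and the haploid arrays were lowest in early cycle 15, where 2 of 3 were under background. kek5, a transmembrane protein with leucine-rich repeats and an immunoglobulin domain, stood at 77.9, 56.7 and 73.8, then 85.7, 101 and 90, then 141, 110.1 and 126 in the haploid stages from cycle 14 to late cycle 15, where the diploid stages had 163, 174 and 126, then 258, 283 and 324, then 276, 237 and 302. Each stage of kek5 was apart from its match, but the late haploid arrays reached the level of the dimmest diploid cycle 13 array. nocte, which is needed for the circadian clock to follow temperature cycles, had 721 to 1740.1 over the 9 diploid arrays and 309 to 527 over the 9 haploid arrays.

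Arc1 encodes a capsid-forming protein descended from a retrotransposon Gag and known from synapses. Arc1 read 1922, 1340.1 and 1405 on the diploid cycle 13 arrays, 1095, 1108 and 1185 at early cycle 14 and 1223, 1132 and 1332 at late cycle 14, against 194, 176 and 238 in haploid cycle 14, 209.7, 257 and 286 in early cycle 15 and 401, 435 and 424 in late cycle 15. Haploid arrays were brightest in late cycle 15 but remained far under every diploid array, and the differences were -2.93, -2.18 and -1.55 (SE 0.127). A few genes with roles in meiosis, centrosomes, cilia and motor transport were also present. narya, a RING finger protein needed for meiotic DNA breaks, gave 502, 436 and 466 in diploid cycle 13 and 108, 184 and 149 in the matched haploid cycle 14, then 566, 550 and 528 against 199, 266 and 248 in the early pair, and 673, 717 and 649.9 against 138, 212 and 276 in the late pair. Its diploid level was highest in late cycle 14, and no haploid array reached the lowest diploid one. Alms1a, a centrosomal protein related to the human Alström syndrome protein, had 699 to 1090.4 over the 9 diploid arrays and 127 to 254 over the 9 haploid arrays, with differences of -1.99, -2.15 and -2.54 (SE 0.107). Oseg5, a subunit of the intraflagellar transport machinery, had 61.7 to 136 over the 9 diploid arrays and 12.1 to 39.6 over the 9 haploid arrays, and only 5 of the 9 haploid arrays were above background. Arp10, an actin-related subunit of the dynein activator dynactin, stood at 36.5, 48.5 and 45.2, then 33.3, 31.9 and 53, then 112, 129 and 53.3 in the haploid stages from cycle 14 to late cycle 15, where the diploid stages had 238, 244 and 229.8, then 235, 276 and 299, then 194, 196 and 230.1. The diploid arrays were flat, and of the late haploid arrays, 2 lay well above all other haploid arrays and 1 did not.

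The remaining genes carry only annotation numbers and are given no role here. Bright examples were CG14434, with 1176 to 1483 over the 9 diploid arrays and 272 to 607 over the 9 haploid arrays, and CG1532, with 439 to 1299.6 over the 9 diploid arrays and 183 to 600.2 over the 9 haploid arrays. The arrays of CG14434 did not overlap, whereas those of CG1532 did. In all, 17 of the 40 genes have a number in place of a name. The genes nearest the limit from inside were Phb1 at -1.02 in the third pair, Drep1 at -1.02 in the first and nocte at -1.02 in the third. The nearest outside were mrt at -0.99 in the first pair, Rnf11 at -0.97 in the first and ssp2 at -0.96 in the third. Of the steady and bright genes, 88 met the limit in exactly 2 pairs and 374 in exactly 1.

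The rule limited each diploid step but not their sum, and the label steady holds only to that extent. From diploid cycle 13 to late cycle 14 the 40 genes changed by a median of -0.44 log2, 30 were lower at the end, and 10 lost at least 1. The lowest values were -1.73 for Glyp, -1.64 for CanB2, -1.57 for CG16711 and -1.56 for CG8036. None gained as much as 1, and the highest value was 0.96, for Zip102B. From haploid cycle 14 to late cycle 15 the median change was -0.50, with 27 genes lower at the end. Of the 40 genes, 23 were lower at the end of both spans and 6 were higher at the end of both. These counts were not set against all steady and bright genes, so they are not shown to be particular to the 40. Across the 40 genes the diploid and haploid changes had a Pearson correlation of 0.71, and across the 4505 steady and bright genes 0.46. The rule bounded differences between the same group means, so the value for the 40 is not free of how they were chosen. Genes on the same arrays share their scaling and are no independent replicates.

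**Figure D2:**
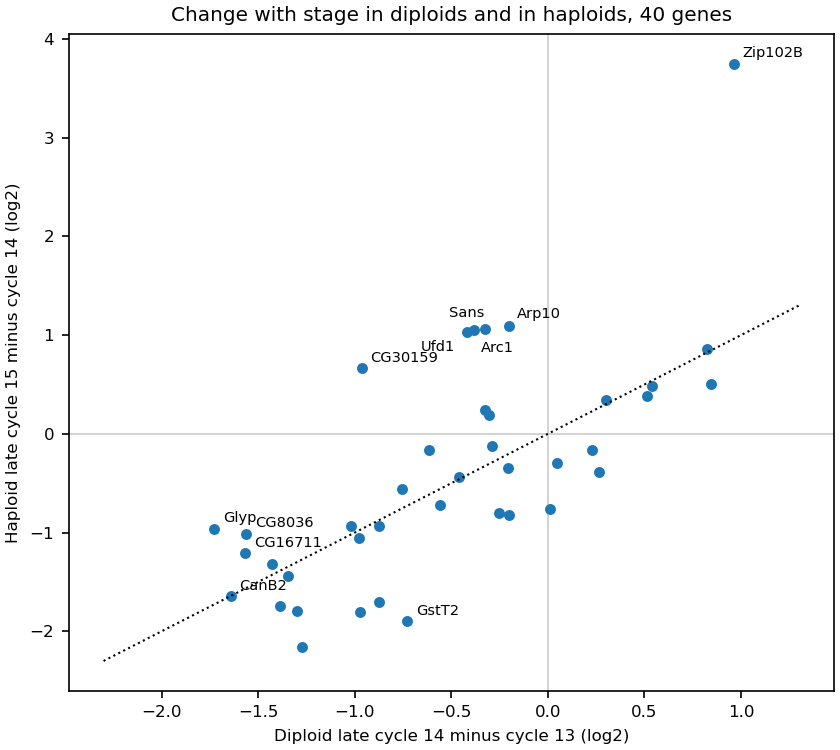
Each point is 1 of the 40 genes, with its log2 change from diploid cycle 13 to late cycle 14 on the horizontal axis and from haploid cycle 14 to late cycle 15 on the vertical axis; the dotted line marks equal change. Most points lie near the line in the lower left, and Zip102B, Arp10, Arc1, Sans, Ufd1 and CG30159 lie above it.

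Compared at the same cycle number, haploid cycle 14 lay below diploid early cycle 14 in all 40 genes, from -5.58 to -0.12, with a median of -1.64, and 30 genes reached -1. At a similar age, haploid early cycle 15 lay below diploid late cycle 14 by a median of -1.34, from -6.85 to -0.23, and 28 genes reached -1. These comparisons use the arrays that chose the genes, and their counts were not set against all steady and bright genes. The genes closest to 0 at the same cycle were CG17698 at -0.12 and Cyp6a19 at -0.29, both of which had a dimmer mean in diploid early cycle 14 than in cycle 13. At a similar age the closest were Phb1 at -0.23, Glyp at -0.34 and CG8036 at -0.44.

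The changes between successive haploid stages were not limited by the rule, although they use haploid arrays that it also used. Tested by limma over all 14560 probe sets with Benjamini-Hochberg adjustment, 13 of the 40 genes changed between haploid cycle 14 and early cycle 15, 2 higher and 11 lower, where 24% of the 10025 tested genes changed, 11.7% higher and 12.4% lower. The largest falls that ended above background were in CtsK1, -0.99 (SE 0.151, adjusted p = 2.6e-05), in CanB2, -0.89 (SE 0.133, adjusted p = 2e-05), and in CG32243, -0.83 (SE 0.142, adjusted p = 9.8e-05). CG17598 and CG17698 were also called lower, at -1.38 (SE 0.245, adjusted p = 0.00015) and -1.23 (SE 0.286, adjusted p = 0.0025), and ended under background on 2 and on 3 of 3 arrays. CG12643 was called lower with both groups under background. narya rose by 0.72 (SE 0.183, adjusted p = 0.0054), and the other gene called higher, Zip102B, was under background at both stages. The balance of calls moved with the scaling, since centring on spiked poly-A controls gave 10 called higher and 0 lower, and the deposited scale 4 and 7. With poly-A centring none of the 11 lower genes was called (adjusted p from 0.076 to 0.87), and 9 kept a negative difference, as low as -0.79, while Phb1 and CG18135 turned to 0.054 and 0.18.

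Between haploid early and late cycle 15, 18 of the 40 genes changed by the same limma test, 5 higher and 13 lower, where 34.4% of all tested genes changed, 16.6% higher and 17.9% lower. The deepest falls were in CG18135, -1.32 (SE 0.124, adjusted p = 6.7e-09), in CtsK1, -1.18 (SE 0.151, adjusted p = 8.7e-07), in GstT2, -1.18 (SE 0.14, adjusted p = 2.9e-07), in Glyp, -1.13 (SE 0.156, adjusted p = 2.7e-06), and in CG32243, -0.91 (SE 0.142, adjusted p = 1.4e-05). The 5 that rose were Ufd1 by 1.37 (SE 0.276, adjusted p = 0.00034), Arp10 by 1.26 (SE 0.243, adjusted p = 0.00021), CG17598 by 0.99 (SE 0.245, adjusted p = 0.0028), Arc1 by 0.76 (SE 0.127, adjusted p = 3.9e-05) and kek5 by 0.44 (SE 0.161, adjusted p = 0.041). The kek5 call was lost in 9 of 26 alternative settings, with values down to 0.16 and adjusted p up to 0.67. With poly-A centring 1 gene was called higher and 18 lower. The calls make up 32.5% of the 40 genes in the first step and 45% in the second, near the 28.9% and 45.4% of steady and bright genes that changed.

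Whether the haploid deficit itself changed from pair to pair was examined with interaction contrasts in the same limma fit. Each contrast is the change between matched differences that the rule itself held at -1 or below, so its p-values are not independent of how the genes were chosen. From the first to the second pair 4 of the 40 genes changed, 3 with a smaller and 1 with a larger deficit. Among all tested genes 11.1% changed, 4.72% upward and 6.37% downward, and among steady and bright ones 12.7% did. The deficit of CG17598 deepened by -1.78 (SE 0.346, adjusted p = 0.0014), while that of Glyp shrank by 0.96 (SE 0.221, adjusted p = 0.0061) and that of Arc1 by 0.75 (SE 0.179, adjusted p = 0.0081). The change of Zip102B, 2.99 (SE 0.65, adjusted p = 0.0039), rests on haploid values under background. From the second to the third pair 6 of the 40 changed, 4 upward and 2 downward, against 17.8% of all tested genes (8.02% upward, 9.8% downward) and 25.7% of steady and bright ones. The deficit shrank in Arp10 by 1.64 (SE 0.344, adjusted p = 0.0015), in CG17598 by 1.12 (SE 0.346, adjusted p = 0.03), in nocte by 0.95 (SE 0.261, adjusted p = 0.014) and in Arc1 by 0.64 (SE 0.179, adjusted p = 0.017). It grew in GstT2 by -0.73 (SE 0.198, adjusted p = 0.013) and in CG18135 by -0.54 (SE 0.175, adjusted p = 0.041). The CG17598 call of this second test was lost in 9 of 26 alternative settings (adjusted p up to 0.11). The GstT2 value turned to 0.093 on the deposited scale, 0.063 after median centring and 0.022 with ribosomal protein centring, and the CG18135 call was lost in 15 of 26 alternative settings, including all 4 other scalings (adjusted p from 0.052 to 0.17). The mix of directions moved with the scaling: 3 shrank and 1 grew in the first test after quantile normalisation, but 1 and 4 after median centring and 6 and 0 with poly-A centring. In the second test 4 shrank and 2 grew, but 8 and 0 on the deposited scale, 9 and 0 after median centring, 8 and 0 with ribosomal protein centring and 3 and 0 with poly-A centring. Without the second diploid late cycle 14 array, 3 genes were called in the second test.

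**Figure D3:**
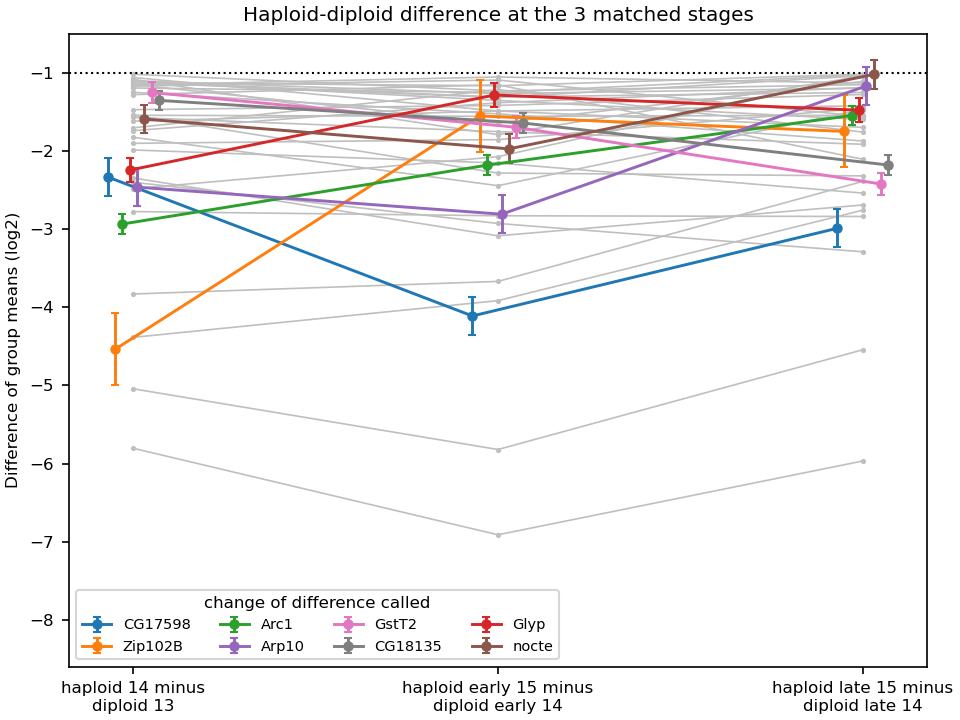
Haploid minus diploid difference of group means (log2, vertical axis) at the 3 matched pairs (horizontal axis) for the 40 genes, with bars of 1 SE for the 8 genes whose difference changed by the interaction test (coloured lines) and grey lines for the others. All points lie at or below the dotted limit of -1; Arc1 runs from -2.93 to -1.55 and GstT2 from -1.25 to -2.42.

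Of the 40 genes, 5 had other probe sets that the rule did not use, 8 in all, and these test the same RNA with different probes. Limma called 3 of the 8 lower in haploids in the first pair, 4 in the second and 3 in the third, and none higher, where 15%, 12.3% and 11.6% of all tested probe sets were called lower. At an unadjusted p under 0.05 the count called higher was also 0 in each pair. The other probe set of Arc1 averaged 546 ± 122, 342 ± 37.6 and 446 ± 62.5 in the diploid stages and 46.6 ± 6.77, 67.4 ± 18.8 and 74.2 ± 4.18 in the haploid ones (SD, n = 3). All of these arrays were above background, and the differences were -3.54 (adjusted p = 2.9e-13), -2.38 (adjusted p = 6.8e-10) and -2.58 (adjusted p = 1.6e-10), each with SE 0.183. That of CG7920 averaged 503 ± 51.2, 527 ± 8.28 and 435 ± 65.5 in diploids and 243 ± 35.2, 279 ± 72.3 and 149 ± 50.9 in haploids. The differences were -1.05 (adjusted p = 5.1e-05), -0.95 (adjusted p = 3e-04) and -1.59 (adjusted p = 4.2e-07), each with SE 0.184. The other probe set of CG17698 was lower in the second pair, at -0.71 (SE 0.263, adjusted p = 0.047), and gave -0.34 and -0.29 in the other pairs (adjusted p = 0.37 and 0.55). A probe set of CG41520 was called lower in all 3 pairs but lay under background on every array, as did its other 2. The remaining probe sets, of kek5 and CG7920, were under background on all arrays but 1.

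**Figure D4:**
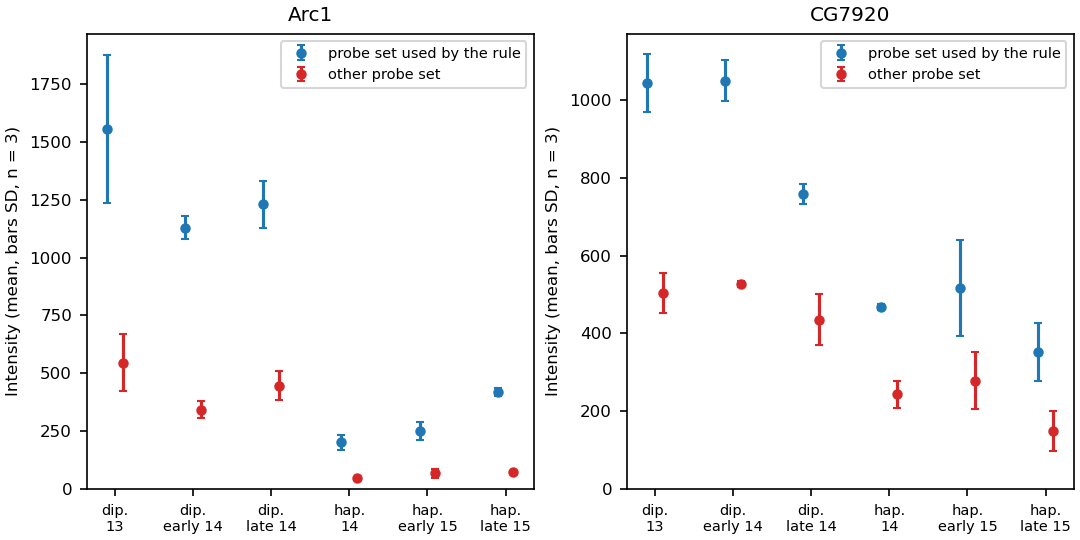
Mean intensity with SD bars (vertical axis, from 0, n = 3) in the 6 groups (horizontal axis) for Arc1 and CG7920, for the probe set that the rule used (blue) and for another probe set of the same gene (red). Both probe sets of each gene are lower in the 3 haploid groups than in the 3 diploid groups.

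To set the genes beside the proteins they work with, other subunits and pathway members were looked up in sets that were drawn up once the 40 genes were known. TER94, which Ufd1 serves, averaged 5157, 3451 and 2574 over the diploid stages against 2212, 2400.4 and 2543 over the haploid ones. Together with the cofactors Npl4, p47 and casp, all 4 were called lower in the first pair and in the second, and 1, Npl4, in the third. Over all tested genes, 18.2%, 15.1% and 14.3% were called lower in the 3 pairs and 24.2%, 16.4% and 11.2% higher. Npl4, which forms a dimer with Ufd1, had differences of -1.46, -1.2 and -0.63 (adjusted p = 3.2e-07, 1.1e-05 and 0.01). With poly-A centring TER94 was not called in the second pair, and under each of the other 4 scalings Npl4 was not called in the third. In TER94, p47 and casp the third pair gave differences of -0.02, 0.14 and -0.17. Phb2, the partner of Phb1 in the prohibitin ring, averaged 3466, 1084 and 400.1 over the diploid stages against 571, 287 and 222 over the haploid ones. Its differences were -2.60, -1.92 and -0.86 (adjusted p = 2e-14, 1.3e-11 and 3.9e-06), lower under every scaling.

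Pp2B-14D, a catalytic A subunit that pairs with calcineurin B, averaged 1119.9, 829 and 256 over the diploid stages against 101, 46.3 and 32 over the haploid ones. Its differences were -3.47, -4.18 and -3.11 (adjusted p = 3.4e-10, 4e-11 and 4.3e-09), larger than those of CanB2 in each pair. The calcineurin regulator sra, which is needed for egg activation, was called lower in the third pair, at -1.23 (adjusted p = 1.5e-08), and not in the first 2, at 0.09 and -0.25 (adjusted p = 0.65 and 0.12). In the second pair sra was called lower on the deposited scale, after median centring and with ribosomal protein centring. Its values there were -0.64, -0.44 and -0.48 (adjusted p = 0.0014, 0.012 and 0.0085). In the first pair sra was called lower with poly-A centring, at -0.67 (adjusted p = 0.012). The deposited scale gave -0.39 in that pair (adjusted p = 0.05). The subunits CanA1 and CanB, whose group means were all under background, were called in no pair (adjusted p from 0.27 to 0.99). Of these 4 genes, 1, 1 and 2 were thus called lower in the 3 pairs after quantile normalisation. Of 9 other enzymes of glycogen and sugar phosphate metabolism, 7, 5 and 5 were called lower in the 3 pairs and 1, 0 and 0 higher. AGBE, the glycogen branching enzyme, had -1.51, -0.71 and -1.73 (adjusted p = 1.8e-08, 0.00072 and 4.3e-09), and the pentose phosphate enzyme Taldo had -1.63, -0.91 and -0.87 (adjusted p = 6.9e-10, 1.1e-05 and 2.3e-05). Arc2, a relative of Arc1, had -0.81, -0.79 and -2.58 (adjusted p = 0.00035, 0.00077 and 4e-11).

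Other sets gave mixed or opposite directions after quantile normalisation. Of 9 other intraflagellar transport genes beside Oseg5, 1, 1 and 0 were called lower in the 3 pairs and 1, 0 and 0 higher. Of 3 relatives of Drep1, 0, 1 and 0 were called lower and 0, 0 and 1 higher. Of 5 genes of beta-glucan recognition and Toll beside GNBP3, 1, 1 and 1 were called lower and 1, 1 and 0 higher. Of 6 testis meiotic arrest genes beside tomb, 0, 1 and 0 were called lower and 2, 2 and 1 higher. These directions moved with the scaling. On the deposited scale 2, 1 and 0 of 7 testis genes were called lower and 0 higher in each pair. After median centring 1, 1 and 0 of 6 were called lower and 1, 0 and 0 higher. The higher call among the intraflagellar transport genes was made under no other scaling. Limma called none of the other 4 subunits of eIF2B lower in any pair (1, 1 and 0 at an unadjusted p under 0.05), and 1, eIF2Bbeta, higher in the first. Their directions rest on the scaling, as 4, 4 and 0 of the 4 were called lower on the deposited scale. In dynactin, 3, 3 and 0 of 8 other subunits were called lower and 3, 4 and 3 higher. DCTN3-p24 averaged 129, 195 and 232 over the diploid stages against 829, 901 and 976 over the haploid ones, and its differences of 2.69, 2.21 and 2.07 were higher under every scaling (adjusted p = 2.9e-15, 3.3e-13 and 6e-13). nenya, the close relative of narya, was called higher in the first 2 pairs, at 0.88 and 0.41 (adjusted p = 6.4e-06 and 0.02), calls that no other scaling made. vilya, another RING finger protein of the same set, was called lower in the second pair and in the third, at -1.91 and -1.43 (adjusted p = 0.0057 and 0.047), with its haploid group means and its diploid late cycle 14 mean under background. Of the 4 genes in the set 0, 1 and 1 were called lower and 1, 1 and 0 higher. The 2 other subunits of mitochondrial RNase P, in which scu takes part, were not called lower by limma in the first 2 pairs (0 at an unadjusted p under 0.05) and were both called lower in the third. Of these, rswl was called higher in the first, at 0.42 (adjusted p = 0.012). On the deposited scale 2, 2 and 1 of the 2 were called lower, and with poly-A centring 2, 0 and 0.

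Of 22 gene lists for functions and cell types, 19 held none of the 40 genes. These include the lists of pole cell, follicle and later embryo markers, DNA repair, cell cycle, heat shock, proteasome, oxidative phosphorylation and both kinds of ribosomal protein. The immune list held GNBP3, and of its 37 measured genes 4, 3 and 3 were called lower in the 3 pairs and 7, 7 and 2 higher. The detoxification list held GstT2 and Cyp6a19, with 10, 8 and 15 of 120 genes lower and 21, 13 and 8 higher. The translation factor list held eIF2Bepsilon, with 12, 7 and 3 of 43 genes lower and 9, 4 and 5 higher. Over all tested genes, 18.2%, 15.1% and 14.3% were called lower and 24.2%, 16.4% and 11.2% higher. The medians of these 3 lists lay between -0.19 and 0.16 in all pairs. Of 7 pole cell and germline genes measured, 5, 5 and 2 were called lower and 2, 2 and 0 higher, with medians of -0.93, -1.13 and -0.09. Their summed intensity was 2170 to 10719 in diploid and 1833 to 4999.6 in haploid arrays, and none was under background throughout. Of 15 maternal transcripts known to be cleared at the transition, 9, 8 and 11 were called lower and 2, 0 and 1 higher, with medians of -0.41, -0.51 and -1.07 and sums of 19996 to 50396 in diploid and 15081 to 37377 in haploid arrays. Of 6 yolk nucleus and amnioserosa genes, 0, 0 and 1 were called lower and 4, 4 and 1 higher, with sums of 945 to 3259 in diploid and 2154 to 3690.3 in haploid arrays, and 1 was under background on all arrays. The 11 follicle and mother tissue genes measured, 4 of which were under background on all arrays, had a summed intensity of 130 to 294 in diploid and 167 to 451 in haploid arrays, with 0 called lower and 2, 1 and 0 higher. The part of these 4 lists in the differences of the 40 genes was not tested.

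The 40 genes are spread over all major chromosome arms, by the RefSeq annotation of Release 6, in which all 40 were found. The X chromosome carries 12 of them, or 30%, and 16.8% of the steady and bright genes. The X-linked genes were CG12643, CG17598, Alms1a, Arp10, scu, narya, CG14434, nocte, eIF2Bepsilon, kek5, CG1532 and CG32572. Among the 18 steady genes higher in haploids, 6 are on the X. Arm 2R carries 9, 3L 7, 2L 6, 3R 5 and chromosome 4 carries Zip102B. Arm 3R holds 12.5% of the 40 genes and 25.1% of the steady and bright genes. The median difference of all steady and bright genes on the X was 0.12, 0.02 and 0.01 in the 3 pairs, where the medians of the other arms ran from 0.23 to 0.28, from 0.09 to 0.12 and from -0.03 to 0.01. The X median was the lowest of all arms in the first 2 pairs. These shares describe a list chosen by its values and carry no test.

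**Figure D5:**
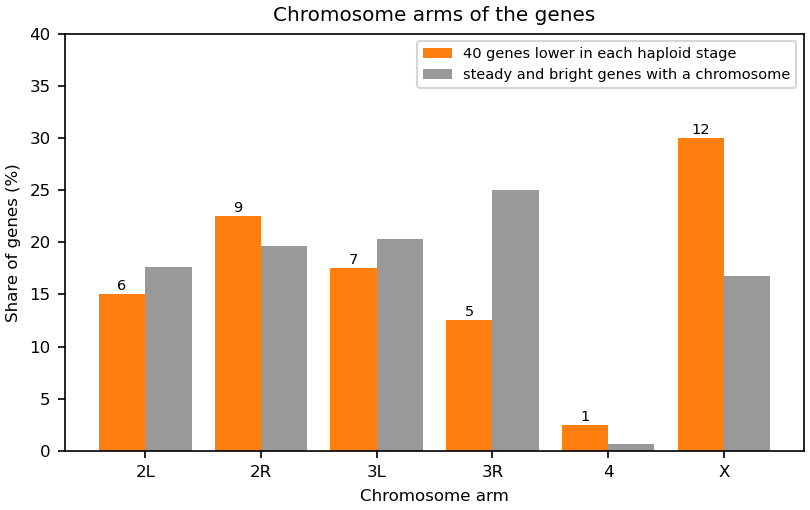
Share of genes (vertical axis, percent) on each chromosome arm (horizontal axis) for the 40 genes (orange, with their number above each bar) and for the steady and bright genes with a known chromosome (grey). The X holds 30% of the 40 genes and 16.8% of the background genes, and 3R 12.5% and 25.1%.

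Only 2 pairs of the 40 genes lie within 2 genes of each other. On the X, kek5 and narya have 1 gene between them, CG32533, which averaged 23.6, 34.6 and 43 over the diploid stages, 19.5, 55.4 and 69.5 over the haploid ones and was not called in any pair. Naa15-16, the next gene but 1 past narya, was called lower in the first 2 pairs, at -1.41 and -1.38 (adjusted p = 0.00085 and 0.0017), and not in the third (0.32, adjusted p = 0.59). The gene between it and narya, mRpS14, was not called, with differences of 0.06, 0.21 and -0.04 (adjusted p = 0.74, 0.15 and 0.87). On the other side, out, the next gene but 1 past kek5, was called lower in the second pair and in the third, at -0.56 and -1.67 (adjusted p = 4e-04 and 7e-11), and gave 0.00 in the first (adjusted p = 0.99). On 2L, CG9331 and Oseg5 flank CG31673 and CG31674. CG31673 averaged 955, 1078 and 1228 over the diploid stages, 1088, 1085 and 1108 over the haploid ones. Its differences were 0.19, 0.01 and -0.15, and those of CG31674 were 0.46, 0.10 and -0.37, so neither gene shared the deficit of its neighbours. The next closest pair, CG12643 and nocte, has 19 genes between.

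How many genes meet the rule depends on the scaling more than on any array. The deposited scale gave 80 genes, of which 24 are among the 40, and ribosomal protein centring gave 68, of which 25 are. Under all 4 other scalings 16 of the 40 genes still met every limit: scu, CG9922, CG14434, Arc1, Drep1, Alms1a, CG9752, narya, kek5, CG17598, CG12643, Oseg5, tomb, CG41520, Zip102B and CG32572. Under none of the other 4 scalings was the rule met by GNBP3, CG30159, Glyp, CG8036, Ts, Phb1, eIF2Bepsilon, CG1532, CG32243, CG17698, Cyp6a19 or CG16711. These genes belong to the 40 only after quantile normalisation. When single arrays were left out in turn, 35 to 42 genes met the rule and 20 of the 40 did so every time. CG17698 dropped out in 7 of the 18 cases and CG41520 in 6.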

How the data were processed

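Each Affymetrix array holds 18952 probe sets and was hybridised with RNA of about 50 embryos. The authors deposited linear intensities, for which the submitters' processing notes name MAS5; its version and target intensity are not stated there. The 18 deposited columns were quantile-normalised, intensities under 0.1, the lowest positive value, were set to it, and log2 values were then taken. The 40 genes, the gene lists and the tests were chosen with earlier results of these data known, and the sets of partner proteins after the 40 genes were known.

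The test took in 14560 of the 18769 probe sets other than controls, namely those that reached an intensity of 12, the 40th percentile of the table, on 3 or more arrays. A level of 32, which the rule asks for, lies above that filter, so all 40 genes were tested. A model of 6 group means was fitted to 18 arrays with limma 3.58.1 (R 4.3.3), moderated with an intensity trend, on 12 residual degrees of freedom. Benjamini-Hochberg adjustment covered every probe set tested, and a gene was called where the adjusted p was under 0.05. SEs are those of the model. Where the dim group was under background on every array, the bright group's mean over the background is given as "at least". The labels call the replicates biological, and 3 arrays a group limit the precision. The fit was tested on simulated data.

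Only the 13647 probe sets annotated with 1 gene symbol could stand for a gene, while 402 carried several symbols and 4720 carried none. The normalisation and the limma test did not depend on the gene symbols. Chromosome arms and gene order come from the RefSeq annotation of Release 6, and no sequences were used here. Named genes are the 12 with the largest mean difference among those at a log2 level of 5 in each diploid group, the 8 brightest, the 3 nearest the limit on each side, members of a gene list, up to 5 called in each direction of a test, genes with other tested probe sets, neighbours, and any on which a count of 5 or fewer rests. Others were named after their values were seen. Arrays of different groups that share a replicate number did not deviate together: over 45 such pairs the correlation of their deviations ran from -0.02 to 0.03. Alternatives were 4 other scalings, a floor of 16, no filter, no trend, a replicate block, another choice of probe set, other limits of the rule, and leaving out each array.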

Additional observations from a re-analysis of the deposited data

Results flagged for a closer look

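The haploid-diploid difference of 8 of the 40 genes changed between matched pairs by the interaction test in limma (adjusted over all tested probe sets, 3 arrays a group). The called genes made up 10% and 15% of the 40 in the 2 changes, against 12.7% and 25.7% of steady and bright genes. Over all tested genes the shares were 11.1% and 17.8%. From the first to the second pair the difference changed by -1.78 in CG17598 (SE 0.346, adjusted p = 0.0014), 0.75 in Arc1 (SE 0.179, adjusted p = 0.0081), 0.96 in Glyp (SE 0.221, adjusted p = 0.0061) and 2.99 in Zip102B (SE 0.650, adjusted p = 0.0039). The value of Zip102B comes from haploid arrays under background, and with intensities floored at 16 it was -0.37.

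From the second to the third pair it changed by -0.73 in GstT2 (SE 0.198, adjusted p = 0.013), -0.54 in CG18135 (SE 0.175, adjusted p = 0.041), 0.64 in Arc1 (SE 0.179, adjusted p = 0.017), 0.95 in nocte (SE 0.261, adjusted p = 0.014), 1.12 in CG17598 (SE 0.346, adjusted p = 0.03) and 1.64 in Arp10 (SE 0.344, adjusted p = 0.0015). The change of Arp10 was called under all 26 alternative settings, with values from 1.39 to 2.23 and adjusted p up to 0.016. That of CG18135 was lost in 15 of the 26, with adjusted p from 0.011 to 0.17. That of CG17598 was lost in 9 (adjusted p up to 0.11), that of nocte in 5 and that of Arc1 in 4. That of GstT2 turned to 0.093, 0.063 and 0.022 on the deposited scale, with median centring and with ribosomal protein centring. These changes are differences between values that the rule for the genes had limited. Apart from leaving out each array in turn, groups of 3 arrays were not examined for single outlying samples.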

How the results depend on the processing

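Ploidy, stock and mother's genotype change together, and within each matched pair age and cycle number differ too, so no setting separates them. The number of genes meeting the rule, 40, was 80 on the deposited scale and 68 with ribosomal protein centring, and 67 and 23 with the limit of the difference at -0.8 and -1.2, limits chosen after seeing the data. It was 47 with median centring, 49 with poly-A centring and 36 with a floor of 16, and the cause was not tested. The X chromosome held 21 of the 80, 20 of the 68, 12 of the 47 and 12 of the 49, a count added after seeing the data.

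Changes of the difference from the first to the second pair, 4, were called in 1 gene on the deposited scale, 2 with ribosomal protein centring and 2 without the intensity trend. From the second to the third pair, 6, they were called in 3 genes with poly-A centring and 1 without the trend. With poly-A centring 5 other probe sets were called lower in the first pair. Reversed values were 0.054 for Phb1 and 0.18 for CG18135 in the step from haploid cycle 14 to early cycle 15 with poly-A centring, -0.37 for the first change of Zip102B with the floor of 16, and 0.093, 0.063 and 0.022 for the second change of GstT2 on the deposited scale, with median centring and with ribosomal protein centring. The cause was not tested. Of 41 called results of single genes, 14 were called in the same direction under all 26 settings.

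Leaving out 1 array at a time gave 35 to 42 genes meeting the rule, 11 to 16 and 16 to 20 called in the 2 haploid steps, 4 to 5 and 3 to 8 in the 2 changes of the difference, and 2 to 3, 2 to 4 and 2 to 3 other probe sets called lower in the 3 pairs. The second change gave 3 without diploid late cycle 14 replicate 2. Other probe sets in the second pair gave 2 without diploid early cycle 14 replicate 2 and 2 without haploid early cycle 15 replicate 3. With the replicate number as a block the counts were 14, 18, 4 and 6, and 3, 3 and 3 other probe sets, so the block moved no count by over 1.5 times. Levels under background have no order, which limits the 18 genes with haploid arrays there.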

Other observations

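Shmt, serine hydroxymethyltransferase, which feeds one-carbon units to thymidylate synthesis beside Ts, averaged 169, 58.8 and 5.90 in the diploid stages and 11.6, 2.82 and 3.21 in the haploid stages, the last all under background. It was called lower in haploids in the first 2 pairs (adjusted p = 1.9e-05 and 7.4e-05) and not in the third (adjusted p = 0.72). Of 7 other genes of nucleotide supply measured, 3, 3 and 1 were called lower in the 3 pairs and 1, 2 and 1 higher. The heat shock and chaperone list, which holds none of the 40 genes, had 19, 16 and 7 of 23 genes called lower by limma in the 3 pairs and 1, 2 and 3 higher, where 18.2%, 15.1% and 14.3% of all tested genes were called lower and 24.2%, 16.4% and 11.2% higher, with medians of -1.11, -0.72 and 0.03. A probe set that the annotation shares between scu and DIP-epsilon averaged 4.24 to 13.0 in the 6 groups, under background, and was not called in any pair (adjusted p = 0.74, 0.49 and 0.47).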
